A study of Mus musculus with 13 samples.

Results

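The subject is the locus of Acan, gene 11595, on mouse chromosome 7. Members were the Sox9 peaks with a centre between 86100000 and 86260000 of build mm9, a window of 160 kb that holds about 98.0 kb before the gene and the whole gene body. The gene was taken to run from about 86198000 to about 86260000 on the plus strand, limits rounded to 1 kb, so distances to its start carry that uncertainty. The window held 31 peaks of the 45096 in the series, 23 of the 27656 rib peaks and 8 of the 17440 nasal peaks. Of the rib members, 6 were Class I and 17 were Class II, the 2 classes into which the submitters divided the rib list, where Class I makes up 24.6%. The sources used here do not give how the classes were drawn.

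The peaks come from ChIP-seq, which immunoprecipitates fixed chromatin and sequences the DNA bound to a protein. Rib chondrocytes were taken at postnatal day 1 and nasal septum chondrocytes at embryonic day 17.5, both by enzyme digestion from untreated wild-type ICR mice, and both were precipitated with the same Sox9 antibody. The series has 13 libraries, and the lists used here stem from 1 Sox9 library per tissue. There was no replicate, tissue and stage differ together, and the lists hold neither heights nor read depth, so no test between the tissues was possible. A peak that is missing from a list may have fallen below its threshold, and fewer cells with bound Sox9 cannot be told apart from weaker binding in every cell. Peaks of a library are not replicates, and neighbouring peaks are not independent, so the intervals below cover counting error alone. The lists carry no expression values, so the cell type could not be checked against marker genes.

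Acan encodes aggrecan, the large proteoglycan of cartilage. Its core protein carries chondroitin sulfate chains and binds hyaluronan, and the charged chains hold the water that lets cartilage bear load. Sox9 is the HMG-box transcription factor on which chondrocyte fate and cartilage matrix genes depend, and it acts with Sox5 and Sox6. Acan is a well-known target of Sox9 in mouse, and enhancers upstream of the gene that bind Sox9 have been described. In the RefSeq table of GRCm38.p6, the genes before Acan are Isg20, which encodes an exonuclease, and the long noncoding RNA genes Gm31213 and Gm26633. Gm26633, on the minus strand, is the immediate neighbour of the Acan start. The genes after Acan are Hapln3, of the family of hyaluronan and proteoglycan link proteins, and Mfge8, which encodes a secreted glycoprotein. No position of that build was converted to mm9.

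The promoter of Acan is shown because the largest group of Class I peaks in the window lay just past the gene start. RefSeq lists a single start for Acan in the promoter table, on GRCm38.p6. The 250 bases before it, chr7:79052976-79053225 on the plus strand, read 5′ to 3′ as below, with CCAAT and GGGCGG matches on either strand in capitals.
Acan promoter: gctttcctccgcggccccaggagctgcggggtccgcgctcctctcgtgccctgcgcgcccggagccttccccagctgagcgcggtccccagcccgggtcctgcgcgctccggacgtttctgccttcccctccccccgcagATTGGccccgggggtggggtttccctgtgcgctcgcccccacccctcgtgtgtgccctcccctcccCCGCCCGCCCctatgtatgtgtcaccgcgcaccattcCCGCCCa
The SOX core variants searched on both strands were ACAATG and AACAAT, which both contain the shorter variant ACAAT, and the variant ACAAAG. None of them occurred in the 300 bases of the table, which end 50 bases past the start. Of the 32851 promoters in the table, ACAATG stood in 12.6%, AACAAT in 10.7%, ACAAAG in 18.7% and ACAAT in 31.0%. The TATA box TATAAA, which 13.6% of promoters hold, was not found either. CCAAT occurred once, on the minus strand, 110 bases before the start, and 37.4% of promoters hold it. GGGCGG occurred on the minus strand with first bases 44, 40 and 7 before the start, the first 2 of them overlapping, and 35.7% of promoters hold it. CCAAT and GGGCGG were searched after the sequence had been seen. The 300 bases were 74% G or C, against a median of 52.7% over all promoters, and held 31 CG pairs, against a median of 7. A share of 4.77% of promoters was at least as rich in G and C. A match is a run of letters and no evidence of binding, and whether these bases lie within an mm9 peak was not tested, as no mm9 genome was used here.

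Rib chondrocytes had Sox9 peaks on both sides of the Acan start, whereas the nasal peaks of the window all lay before it. Before the gene start stood 15 rib peaks and all 8 nasal peaks. In the gene body stood 8 rib peaks and no nasal peak. The rib peaks closest to the start were a Class II peak 10.4 kb before it and a Class I peak whose centre lay 0.206 kb past it, a distance within the rounding of the gene start. The nasal peak closest to the start lay 9.05 kb before it.

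**Figure D1:**
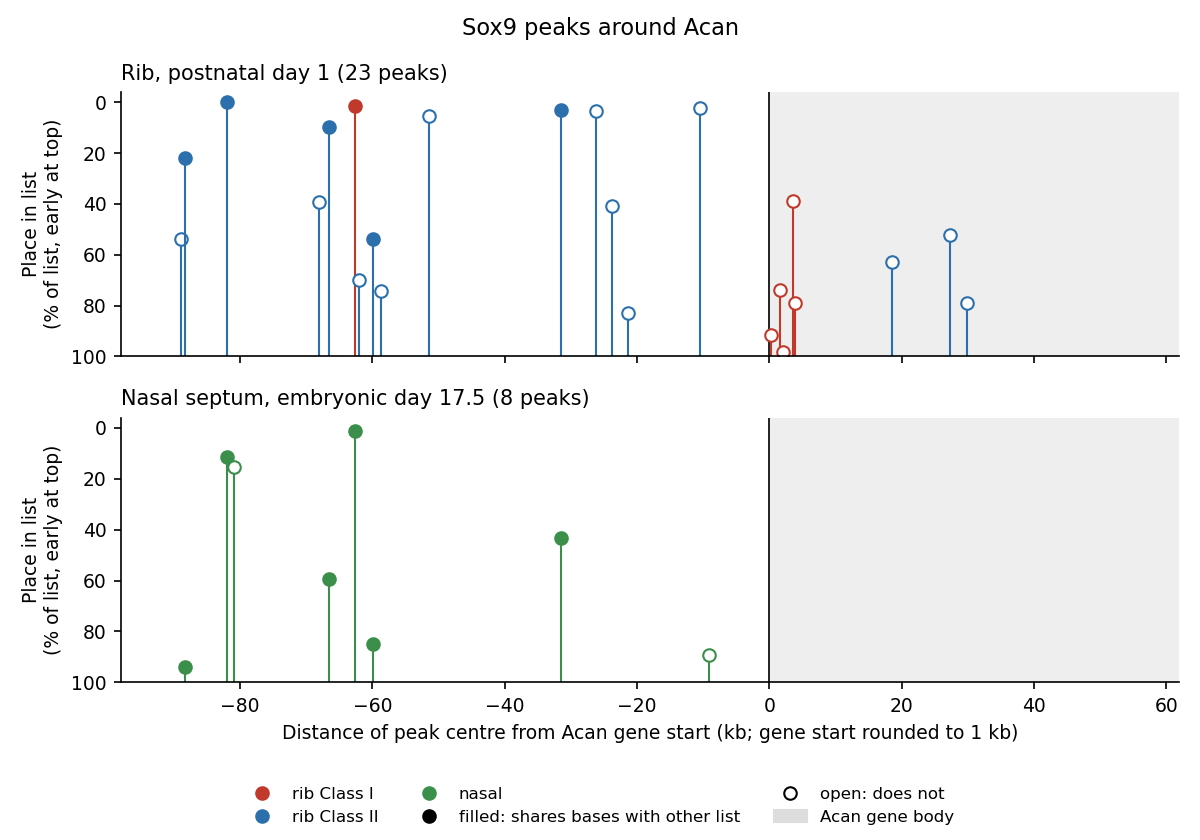
Distance of each peak centre from the Acan gene start in kb (horizontal axis) and place of the peak in its list in percent, early places at the top (vertical axis), for 23 rib peaks (upper panel; Class I red, Class II blue) and 8 nasal peaks (lower panel, green). Filled points share bases with a peak of the other list, grey marks the gene body, and the grey area of the nasal panel holds no peak.

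Nasal peaks overlapped 6 of the 23 rib peaks of the window, or 26.1% (95% exact binomial interval 10.2% to 48.4%), against 42.8% of all rib peaks. The share depends on the window: from 50 kb before the gene start to the gene end it was 1 of 13, or 7.69%. With the window widened by 100 kb on both sides it was 12 of 34, or 35.3%. In the window of 160 kb, with at least 1 shared bp, nasal peaks overlapped 5 of 17 Class II peaks (29.4%, 10.3% to 56.0%). Of the class they overlapped 34.4%, which lies near the share at Acan. Of the Class I peaks they overlapped 1 of 6 (16.7%, 0.421% to 64.1%), against 68.8% of the class, and 5 of these 6 are neighbours at the gene start, so that interval is too narrow. In the other direction, rib peaks overlapped 6 of the 8 nasal peaks, or 75.0% (34.9% to 96.8%), against 68.2% of all nasal peaks. Class I made up 26.1% of the rib peaks (10.2% to 48.4%), close to the 24.6% of the whole list.

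The window was among the richest in rib peaks. All chromosomes were divided into windows of 160 kb, set so that the Acan window was one of them, and 8605 of these held a peak of either list. With 23 rib peaks the Acan window ranked 6th, level with 1 other window, and only 0.0813% of windows held at least as many. The median window held 2 rib peaks and the fullest 37. With 8 nasal peaks it ranked 171st, where 95 others held as many, and 3.09% of windows held at least 8. Its 17 Class II peaks ranked 12th, level with 10 others, and its 6 Class I peaks 51st, level with 42 others. The window therefore stood far nearer to the top of the order for rib peaks than for nasal peaks; this difference was not tested. The window was drawn around a known Sox9 target gene, and the ranks are descriptions.

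**Figure D2:**
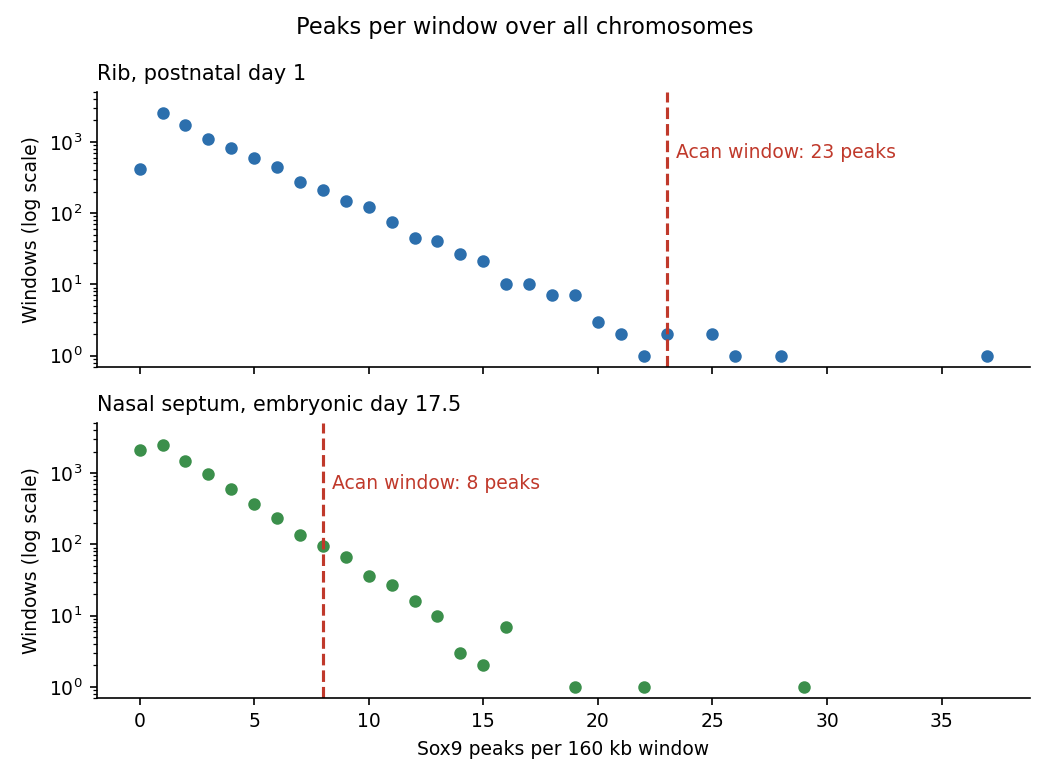
Number of 160 kb windows (vertical axis, log scale) against the number of Sox9 peaks they hold (horizontal axis), for rib peaks (upper panel) and nasal peaks (lower panel). The dashed line marks the Acan window, which has 23 rib peaks, close to the upper end, and 8 nasal peaks, where 95 other windows have as many.

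The rib peaks formed groups along the locus. Joined wherever they stood at most 10 kb apart, they made 5 chains of 3 to 7 peaks and 1 single peak. The median gap between neighbouring rib peaks was 2.32 kb in the window and 23.4 kb over the whole list, and that between nasal peaks 6.24 kb in the window and 35.7 kb over the whole list. After the last rib peak, which ends at 86227942 in the gene body, the next rib peak began 88.0 kb further on, beyond the gene end. After the last nasal peak, the next followed after 127.8 kb. Gaps at least as long made up 20.7% of all rib gaps and 21.5% of all nasal gaps, so such a stretch was common in either list. The last 32.1 kb of the gene body thus held no peak of either list.

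The farthest chain held the earliest rib peak of the locus. It had 3 Class II peaks over 7.24 kb, between 89.2 and 81.9 kb before the gene start. The rib peak at chr7:86115915-86116077, 163 bp wide and centred 82.0 kb before the start, stood on line 5 of the 27656 of the rib list. The meaning of the list order is not stated in the labels. Rib peaks of the first 10% of the list were overlapped by nasal peaks in 81.7% of cases, and those of the last 90% in 38.5%. All of the first 10 lines of the rib list were overlapped by nasal peaks, and 1 of them was Class I. At Acan, line 5 shared 151 bp with the nasal peak at chr7:86115927-86116136, on line 2005 of the nasal list. A second nasal peak, at chr7:86116993-86117145 on line 2660, began 915 bp past the end of the rib peak and met no rib peak itself. The rest of the chain was a peak at chr7:86109538-86109725 on line 6110, which shared 151 bp with the nasal peak at chr7:86109508-86109688 on line 16367, and one at chr7:86108834-86109153 on line 14878, which was 320 bp wide and met none.

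The second chain was the longest, with 7 rib peaks over 16.9 kb, between 68.1 and 51.3 kb before the gene start. It held 1 Class I peak and 6 Class II peaks, and 3 of the 7 were overlapped by nasal peaks. Across the rib list as a whole, 42.8% met a nasal peak, and this chain was close to that share. The Class I peak, at chr7:86135312-86135449, centred 62.6 kb before the Acan start and was the only Class I member outside the gene body. It stood on line 412 of the rib list and on line 21 of the 6794 in the Class I list. The nasal peak that met it, at chr7:86135335-86135468, stood on line 204, the earliest nasal line of the locus, and the 2 shared 115 bp with centres 21 bp apart. This site was thus early in both lists. A Class II peak at chr7:86135911-86136029, on line 19376 of the rib list, began 461 bp after it and met no nasal peak.

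Of the other peaks of that chain, the one at chr7:86131413-86131560 stood on line 2677 of the rib list and met the nasal peak at chr7:86131374-86131549 on line 10346, with 137 bp shared. The peak at chr7:86137983-86138215 stood on line 14877 of the rib list and shared 206 bp with the nasal peak at chr7:86138010-86138229 on line 14825 of the nasal list, the longest overlap of the locus. It was late in the nasal list, which has 17440 lines. Without a nasal partner were the peaks at chr7:86129862-86129982 on line 10825, at chr7:86139106-86139379 on line 20481 and at chr7:86146420-86146739 on line 1479. The last of these, 51.4 kb before the start and 320 bp wide, stood in the first 10% of the rib list, and the nearest nasal peak was 8.19 kb away.

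The next chain had 4 Class II peaks over 10.4 kb, between 31.6 and 21.2 kb before the gene start. Its first 2 peaks were early in the rib list, on lines 841 and 957. Line 841, at chr7:86166394-86166561, shared 115 bp with the nasal peak at chr7:86166447-86166620 on line 7572, whereas line 957, at chr7:86171676-86171864, had no nasal peak closer than 5.05 kb. The other two met no nasal peak. That at chr7:86174139-86174304, centred 23.8 kb before the start, stood on line 11237, and that at chr7:86176536-86176795, centred 21.3 kb before it, on line 22916. No further nasal peak lay in this chain.

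The last rib peak before the gene stood alone, at chr7:86187481-86187634, 154 bp wide and centred 10.4 kb before the start. It was on line 587 of the rib list and shared no base with a nasal peak. A nasal peak of 218 bp, at chr7:86188839-86189056 on line 15605 of the nasal list, began 1.20 kb past its end. The centres lay 1390 bp apart, so the 2 tissues each had a peak in this stretch without sharing a base.

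At the gene start stood Class I peaks of the rib list. They were 5 Class I peaks within 3.72 kb, from 86198130 to 86201847, and neither Class II nor nasal peaks lay among them. The first, at chr7:86198130-86198283, was 154 bp wide and on line 25314. The next, at chr7:86199333-86199764, was 432 bp wide, the widest peak of the window, and stood on line 20475. Of all rib peaks, 98.6% were that wide or narrower. Beyond it came peaks of 27 bp, at chr7:86199989-86200015 on line 27184, of 15 bp, at chr7:86201579-86201593 on line 10800, and of 57 bp, at chr7:86201791-86201847 on line 21858. The 3 narrow peaks are among the narrowest of the class, since 6.12% of Class I peaks are 57 bp or narrower and 0.913% are 15 bp or narrower. Gaps of 224 and 197 bp separated neighbours in 2 places; whether single enrichments were split was not tested.

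None of these 5 Class I peaks was overlapped by a nasal peak (0%, 95% exact binomial interval 0 to 52.2%), and the nearest nasal peak ended 9.07 kb before the first. The 5 are close neighbours, so that interval is too narrow. Over the whole series the nasal list met 68.8% of Class I peaks. With the rib list divided by place into 10 parts, the parts that held these 5 peaks had between 49.0% and 80.2% of their Class I peaks overlapped. Among Class I peaks of 57 bp or less it was 50.2%, among those of 27 bp or less 41.4% and among those of 15 bp or less 32.3%. Chains of at least 5 Class I peaks at most 10 kb apart numbered 36 in the series. Of these, 2 had no peak that a nasal peak overlapped, and the chain at the Acan start was one of them. The minimum of 5 equals the size of that chain and was not planned in advance. Chains of exactly 5 Class I peaks numbered 21, and the chain at Acan was the only 1 of them without overlap.

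**Figure D3:**
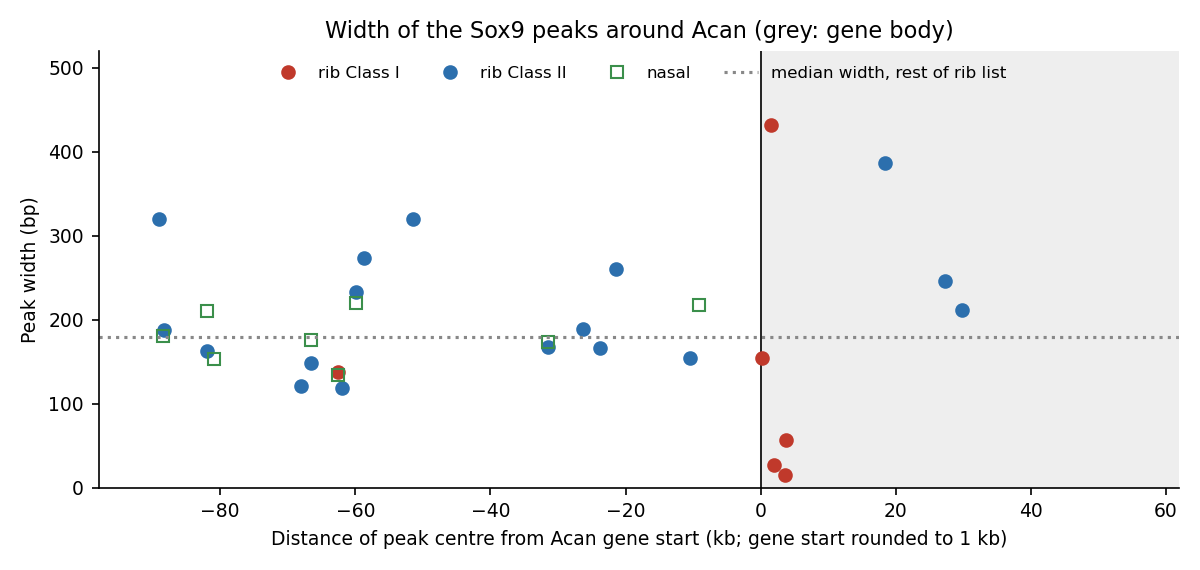
Peak width in bp (vertical axis) against the distance of the peak centre from the Acan gene start in kb (horizontal axis) for rib Class I (red), rib Class II (blue) and nasal peaks (open green squares). The dotted line is the median of the rest of the rib list, 180 bp, grey is the gene body, and the Class I peaks at the gene start include the widest peak, of 432 bp, and the 3 narrowest, of 15, 27 and 57 bp.

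Deeper in the gene body lay a chain of 3 Class II peaks over 11.6 kb, between 18.3 and 29.9 kb past the start. The first, at chr7:86216293-86216678, was 386 bp wide and on line 17374 of the rib list. The second, at chr7:86225125-86225370, was 246 bp wide and on line 14390, and the last, at chr7:86227732-86227942, was 211 bp wide and on line 21857. All were wider than the median of 181 bp for Class II in the rest of the series. The last of them is the member nearest the downstream limit of the window. None met a nasal peak, where 34.4% of all Class II peaks did, and the nearest nasal peak was 27.2 kb or more away. Whether they lie in introns or exons was not analysed here.

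Before the gene start, nasal peaks overlapped 6 of 15 rib peaks, or 40.0% (16.3% to 67.7%), against 42.8% over the series, which is near that share. In the gene body they overlapped 0 of 8 (0 to 36.9%), which follows from the lack of any nasal peak there. Class I peaks were 1 of 15 before the start (6.67%) and 5 of 8 in the gene body (62.5%, 24.5% to 91.5%), against 24.6% over the series. These 5 are close neighbours, so both intervals for the gene body are too narrow. The median place was line 6110 before the start, or 22.1% of the way down the list, and line 21166 in the gene body, or 76.5%. Places overlapped between the 2 groups, since they ran from 5 to 22916 before the start and from 10800 to 27184 in the gene body. Over the series, the last 90% of the rib list was overlapped less often than the first 10%, and the part of place in these counts was not tested.

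Early rib peaks were numerous at Acan. In the first 10% of the rib list stood 7 of the 23 rib members (30.4%, 13.2% to 52.9%), all of them before the gene start. That number ranked 2nd among the 8605 windows, level with 3 others, and the highest was 8. The nasal list had 1 of its 8 members (12.5%) in its first 10%. Of the 7 early rib peaks, nasal peaks overlapped 4, against 81.7% of all early rib peaks, and of the 16 later ones they overlapped 2, against 38.5%. The early peaks without a nasal partner were those on lines 587, 957 and 1479, centred 10.4, 26.2 and 51.4 kb before the start. Among the first 1000 lines of the rib list, 10.4% of peaks had no nasal overlap and 5.80% had no nasal peak within 5 kb. The Acan window held 5 of these 1000 peaks, 2 of them without overlap, and line 957 was the one without a nasal peak within 5 kb.

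The 6 shared sites were closely aligned. Their centres lay between 20.5 and 56 bp apart, with a median of 29.2 bp, and shared between 115 and 206 bp, at least 66.1% of either peak in every pair. Their lines in the rib list were 5, 412, 841, 2677, 6110 and 14877, and those of their partners in the nasal list were 2005, 204, 7572, 10346, 16367 and 14825. The lists differ in length and hold no score, so no change in strength can be read from these places. The 6 rib peaks with a partner had a median line of 1759 and the 17 without one a median of 17374. In the rest of the series these medians were 9294 with a partner and 16689.5 without one, in the same order. Of the nasal peaks, the 2 without a rib partner lay 915 and 1204 bp from the nearest rib peak, edge to edge.

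Among windows rich in rib peaks, Acan stood at the low end for nasal overlap. Besides Acan, 12 windows had at least 20 rib peaks. Nasal peaks overlapped 26.1% of the rib peaks at Acan, against 27.3% to 76.2% with a median of 51.2% in the other 12, so Acan had the lowest share among these 13 windows. The closest were windows at chromosome 1, 71680001 to 71840000 (27.3%), and chromosome 4, 62880001 to 63040000 (30.0%), where 6 rib peaks each were overlapped, as at Acan. Acan had 0.348 nasal peaks per rib peak, against a median of 0.645 in the other 12, of which 1 was lower. Its share of Class I, 26.1%, stood inside their range of 0 to 82.6%, with 8 lower and 4 higher. All of these shares count overlaps of at least 1 bp. A difference of a peak or 2 would change the order at the low end, and no test of it was made.

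**Figure D4:**
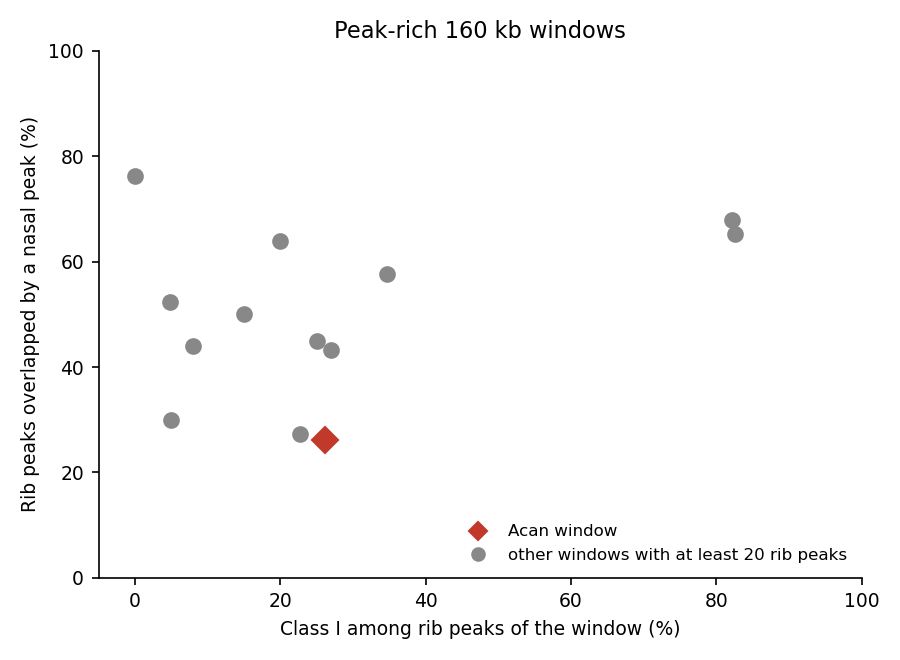
Share of rib peaks overlapped by a nasal peak in percent (vertical axis) against the share of Class I among the rib peaks in percent (horizontal axis), one point per 160 kb window with at least 20 rib peaks. The Acan window (red diamond) has the lowest nasal overlap, 26.1%, next to a window with 27.3%.

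At the upstream limit of the window, the peak just inside was the rib peak on line 14878, centred 89.0 kb before the start, and the peak just outside was at chr7:86090626-86090774, on line 2400, Class II and overlapped by a nasal peak. In the nasal list, the peak just inside stood on line 16367 and that just outside, at chr7:86097817-86098292 and 476 bp wide, on line 13214. At the downstream limit, the nearest peaks outside were 118.0 kb past the start in the rib list (Class II, line 22921) and 118.9 kb past it in the nasal list (line 4885, overlapped by a rib peak). Consecutive lines of the rib list sometimes held peaks of the locus, as with lines 14877 and 14878, and with lines 21857 and 21858. Line 14879 held a peak outside the window but within 100 kb of it. Other members stood on lines close together, as with 20475 and 20481, and with 10800 and 10825. The files do not record whether such lines are ties, so small differences in place carry no weight. How large a difference would carry weight was not tested.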

How the data were processed

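The values analysed were 4 deposited lists of Sox9 peaks, which the authors gave as chromosome, start and end with no other score, so the unit is a position. Per the submitters' processing notes the build was mm9. Rib and nasal lists alike are tagged FDR 1 in their deposited names, with no unit stated. The sources used here name no aligner, peak caller, control library or class definition, and do not say how that FDR value was computed. Per the labels' protocols, chromatin of 20000000 cells per precipitation was fixed with 1% formaldehyde for 10 minutes and sheared to 100 to 600 bp, and libraries had 18 cycles of PCR. The other 11 libraries, inputs and IgG among them, were left out, and no background level was measured in them.

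Positions are the authors' starts plus 1 and their ends. Members had their centres in the window, and overlap meant at least 1 shared bp. Chains joined peaks at most 10 kb apart, place is the line in the list, and windows of 160 kb were tiled over all chromosomes, counting those with a peak. Intervals are 95% exact (Clopper-Pearson). No test was run, since there was 1 Sox9 library per tissue. The rule for printed positions takes the peaks nearest the start, widest, earliest, of Class I, of the longest chain and at the limits. Positions of the other members were added after their values were seen, so that every member has one. The members and lists were chosen with earlier results of these data known. Overlap calls were tested on simulated data, where 1000 of 1000 planted overlaps were found, and differed from bedtools 2.31.1 for 0 of 27656 rib peaks. Tables were handled with pandas 2.3.3 and numpy 2.4.6 in Python 3.11.15, intervals with scipy 1.17.1 and plots with matplotlib 3.10.9. Alternatives were other overlap rules, windows, chain distances, tilings, gene starts and places within the class lists.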

Additional observations from a re-analysis of the deposited data

How the results depend on the processing

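Of 32 recomputed values, 25 stayed within 1.5 times the reported count or within the interval of the reported share, and 7 moved. Counts were compared as such even where the windows differed in length, so this tally does not compare peak density. A window from 50 kb before the gene start to the gene end held 13 rib and 2 nasal peaks, and nasal peaks overlapped 7.69% of its rib peaks; it leaves out the first 2 chains. Widened by 100 kb on both sides, the window held 34 rib and 15 nasal peaks, and nasal peaks overlapped 35.3% of its rib peaks. With chains joined up to 5 kb the locus fell into 10 chains or single peaks, and up to 25 kb into 1, which reached beyond the window and held 31 peaks. The rank by rib peaks was 4 with other tilings and 5 with 100 kb windows. Asking for 50% of both peaks to be shared left 6 of 23 rib and 6 of 8 nasal peaks counted. Under that rule the whole lists fell to 28.4% of rib and 45.1% of nasal peaks, so the rib share at Acan was then near that of the list. Gaps of up to 1 kb gave 9 of 23 rib and 7 of 8 nasal peaks, against 49.9% and 78.1% of the whole lists. No paired analysis was possible because each group holds a single library and no result comes from a test. The depth behind the lists is unknown, so an absent nasal peak may be one below the threshold.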
